A study of Mus musculus with 10 samples.

Results

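The 10 genes described here mark the cell types that lie beside the germline when a mouse embryo begins to form its body. Fgf5, Otx2 and Pou3f1 stand for the epiblast, T, Eomes and Mixl1 for the primitive streak and early mesoderm, Sox17, Gata6 and Foxa2 for endoderm, and Hand1 for extraembryonic mesoderm and trophoblast. They were taken by symbol, and all 10 were found among the 36066 genes of the deposited table. Their levels were compared across 5 groups of 2 libraries each.

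All cells were of the C57BL6 strain. ESCs were a female embryonic stem cell line from fertilized embryos, and pESCs were a parthenogenetic line, made from oocytes that were activated without sperm. Both were grown on a feeder layer of fibroblasts. ESC-PGCLCs and pESC-PGCLCs were primordial germ cell-like cells made from these lines. By the labels, the stem cells first became epiblast-like cells over 2 days with activin A (2 ng/ml) and bFGF (1 ng/ml), and the study's methods give higher doses for this step. BMP4 (500 ng/ml) was then applied for 4 days together with SCF (100 ng/ml), LIF (1000 IU) and EGF (50 ng/ml), and cells that carried both integrin-β3 and SSEA1 on their surface were sorted. PGCs were primordial germ cells sorted from gonads of female embryos, and the labels give no embryonic day for them. The study's methods describe PGCs of 2 embryonic days, sorted by flow cytometry on both surface markers or with magnetic beads against SSEA1. Which day and which sort apply to these libraries cannot be told from the labels. Each stem cell group is thus 1 line or a small set of lines of 1 strain, and each germ cell group is what a surface-marker gate or bead sort let through.

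Primordial germ cells arise from the epiblast when BMP signals from the neighbouring tissue reach cells that have left naive pluripotency. Those same signals, with Wnt and Nodal, turn neighbouring epiblast cells into primitive streak, mesoderm and endoderm, and the germline determinants are known to hold that somatic programme down. Genes of the 3 layers are therefore the usual check for somatic differentiation in cultures of PGCLCs. Several of them have further uses in the gonad, where Gata6 is known as a gene of the somatic cells.

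RNA-seq was used, and the values are TPM (transcripts per 1000000), in which reads are corrected for the length of each gene and then for the total of the library, so that levels of different genes can be set side by side. The reads behind each TPM were recovered from the exon length, and they came to between 6779838 (ESC-PGCLC replicate 2) and 18572901 (ESC replicate 2) per library. At the median exon length of 2182 nt, 3 reads were worth 0.116 to 0.338 TPM, with the 2 ESC-PGCLC libraries the shallowest. A gene was called when limma, fitted to log2(TPM + 1) of 27259 genes, gave an adjusted p under 0.05 (Benjamini-Hochberg over all genes tested) and a change of at least 2-fold. With 2 libraries per group, which the study describes as biological replicates, p-values rest on the spread between those libraries and on variances shared across genes. A value on the log2(TPM + 1) scale understates the change of a gene at low level, so the ratio of reads, adjusted for depth, is given as well with an exact 95% interval that covers counting error only. In bulk RNA, fewer cells of a type and less RNA per cell cannot be told apart.

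The labels were checked against defining genes. Dazl, a germline RNA-binding protein, was at 12.1 to 18.7 TPM in the 4 stem cell libraries and at 1084 to 2095 TPM in the 6 germ cell libraries, and Ddx4, a germline helicase, went from at most 3.35 TPM to at least 186 TPM. Dppa3, Prdm1 and Nanos3 were higher in all 6 germ cell libraries than in the stem cells. Of the 14 germ cell genes listed, 10 were higher in all 6 germ cell libraries than in all 4 stem cell libraries. The others were Prdm14 and Sox3, which overlapped, and Ifitm3 and Dppa5a, which were lower. Ifitm3 was at 1917 to 5655 TPM in stem cell libraries and at 299 to 840 TPM in germ cell libraries. Dppa5a was at 21668 to 28150 TPM and at 2207 to 5627 TPM. Pou5f1, the pluripotency factor that is also a germ cell marker, was at 19.0 to 23.5 TPM in ESCs and at 7.80 and 7.49 TPM in pESCs. It was at 0.374 and 0 TPM in ESC-PGCLCs and at 1.62 to 3.14 TPM in the other germ cell libraries. This defining marker was thus at or near 0 in ESC-PGCLCs. Col1a1, a fibroblast collagen, was at 0.128 to 0.264 TPM in the stem cell libraries. It is 1 of 12 fibroblast genes listed, which summed to 38.9 to 40.1 TPM in ESCs and 29.7 to 41.1 TPM in pESCs. In each of these groups 2 of the 12 were at 1 TPM or more in both libraries.

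Promoters from RefSeq (GRCm38.p6), 250 bases before to 50 bases after a start site, were given for 5 of the 10 genes. These were Fgf5, Otx2, T, Eomes and Foxa2. Eomes and Foxa2 are printed because they were called in opposite directions between ESC-PGCLCs and ESCs, and the capitals mark each CpG, the dinucleotide at which mouse DNA is methylated. The Eomes window is chr9:118477939-118478238 on the plus strand, and the Foxa2 window is chr2:148046920-148047219 on the minus strand.
Eomes: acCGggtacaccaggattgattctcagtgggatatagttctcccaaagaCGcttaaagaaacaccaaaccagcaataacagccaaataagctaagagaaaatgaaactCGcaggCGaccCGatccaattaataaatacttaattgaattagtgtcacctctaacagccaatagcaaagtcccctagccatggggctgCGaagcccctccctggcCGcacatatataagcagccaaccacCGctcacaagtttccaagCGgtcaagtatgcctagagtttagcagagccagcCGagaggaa
Foxa2: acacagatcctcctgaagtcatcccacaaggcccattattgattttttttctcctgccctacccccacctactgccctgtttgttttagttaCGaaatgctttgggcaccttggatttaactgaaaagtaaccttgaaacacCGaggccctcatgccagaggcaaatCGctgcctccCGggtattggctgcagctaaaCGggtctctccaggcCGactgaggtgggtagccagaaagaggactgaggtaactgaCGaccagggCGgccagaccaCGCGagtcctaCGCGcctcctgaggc
The Eomes window holds 10 CpG and is 47.3% G or C, and the Foxa2 window holds 12 CpG and is 54.3% G or C. Both counts are near the middle of all 32851 promoters (percentiles 56.5 and 60.4), whereas the Fgf5 promoter, with 29 CpG, stands at percentile 87.1. A T-box site (AGGTGTGA), a TCF/LEF site (ATCAAAG) and a GATA site (AGATAA) were searched on both strands, and none of these letters occurred in the windows of Eomes, T, Fgf5 or the Foxa2 start printed here. Of the other windows, 1 of 3 Foxa2 starts (148045464) held 1 TCF/LEF site and 1 GATA site, 2 of 4 Otx2 starts held 1 GATA site, and the T-box site was in none. Over all promoters of this length 1.28% held the first, 3.73% the second and 11.2% the third.

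Of the 10 genes, 0 were below detection throughout, where detection means more than 3 reads in at least 1 library. Otx2, T and Mixl1 were above 3 reads in all 10 libraries, Eomes in 9, Fgf5, Pou3f1 and Gata6 in 7, Foxa2 and Hand1 in 5, and Sox17 in 3. By group the picture was uneven. In ESCs, Gata6, Foxa2 and Hand1 were at or below 3 reads in both libraries, and in pESCs Fgf5, Pou3f1, Sox17, Foxa2 and Hand1 were. In ESC-PGCLCs and pESC-PGCLCs each gene was above 3 reads in at least 1 library. In PGCs 9 genes were above 3 reads in both libraries, and Sox17 was above it in neither.

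**Figure D1:**
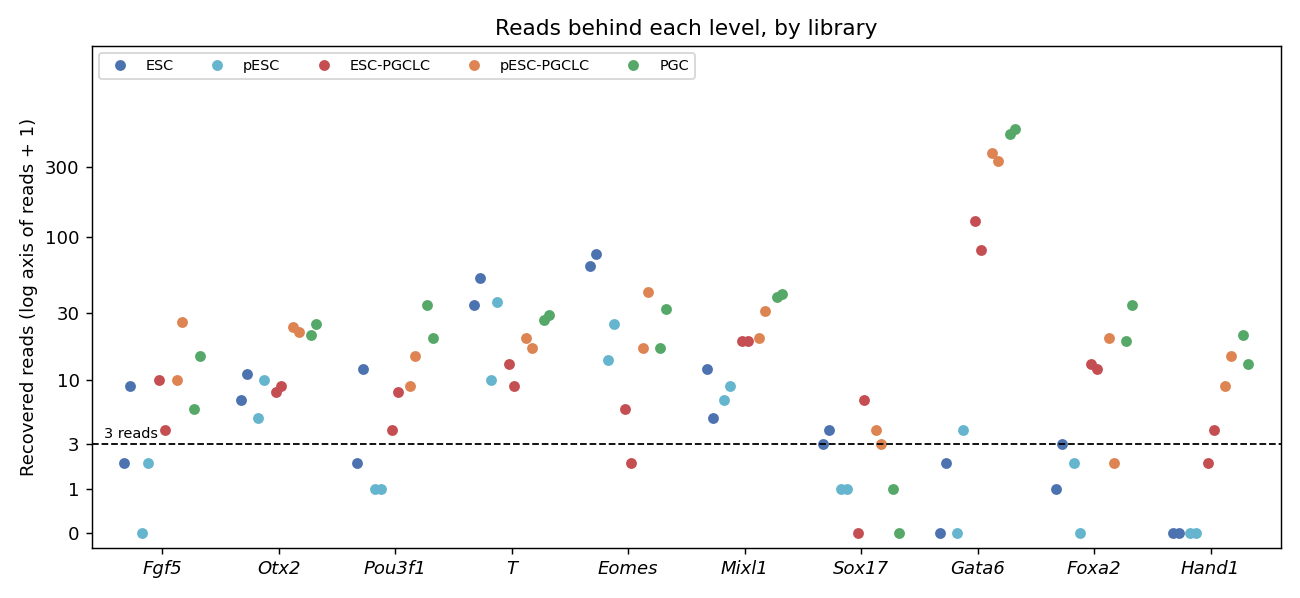
Reads recovered for each of the 10 genes (x axis) in each library, on a log axis of reads + 1. Each point is a library, colours give the group, and the dashed line marks 3 reads. Gata6 reaches 550 reads in PGCs, Hand1 has 0 reads in all 4 stem cell libraries, and Sox17 stays at or below 7 reads.

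All 10 genes were low in these cells. Summed over the 10, the level was 4.27 and 4.66 TPM in ESCs, 1.51 and 3.43 TPM in pESCs, 9.71 and 10.3 TPM in ESC-PGCLCs, 11.8 and 12.3 TPM in pESC-PGCLCs and 17.8 and 22.9 TPM in PGCs. Gata6 alone passed 3 TPM in any library. Fgf5, Otx2, Mixl1, Gata6 and Hand1 were higher in all 6 germ cell libraries than in all 4 stem cell libraries, which is 5 of the 10 genes, and 27.3% of all tested genes lay apart in this direction. The reverse held for 0 of the 10 genes and for 10.5% of the tested genes. The libraries of Pou3f1, T, Eomes, Sox17 and Foxa2 overlapped.

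**Figure D2:**
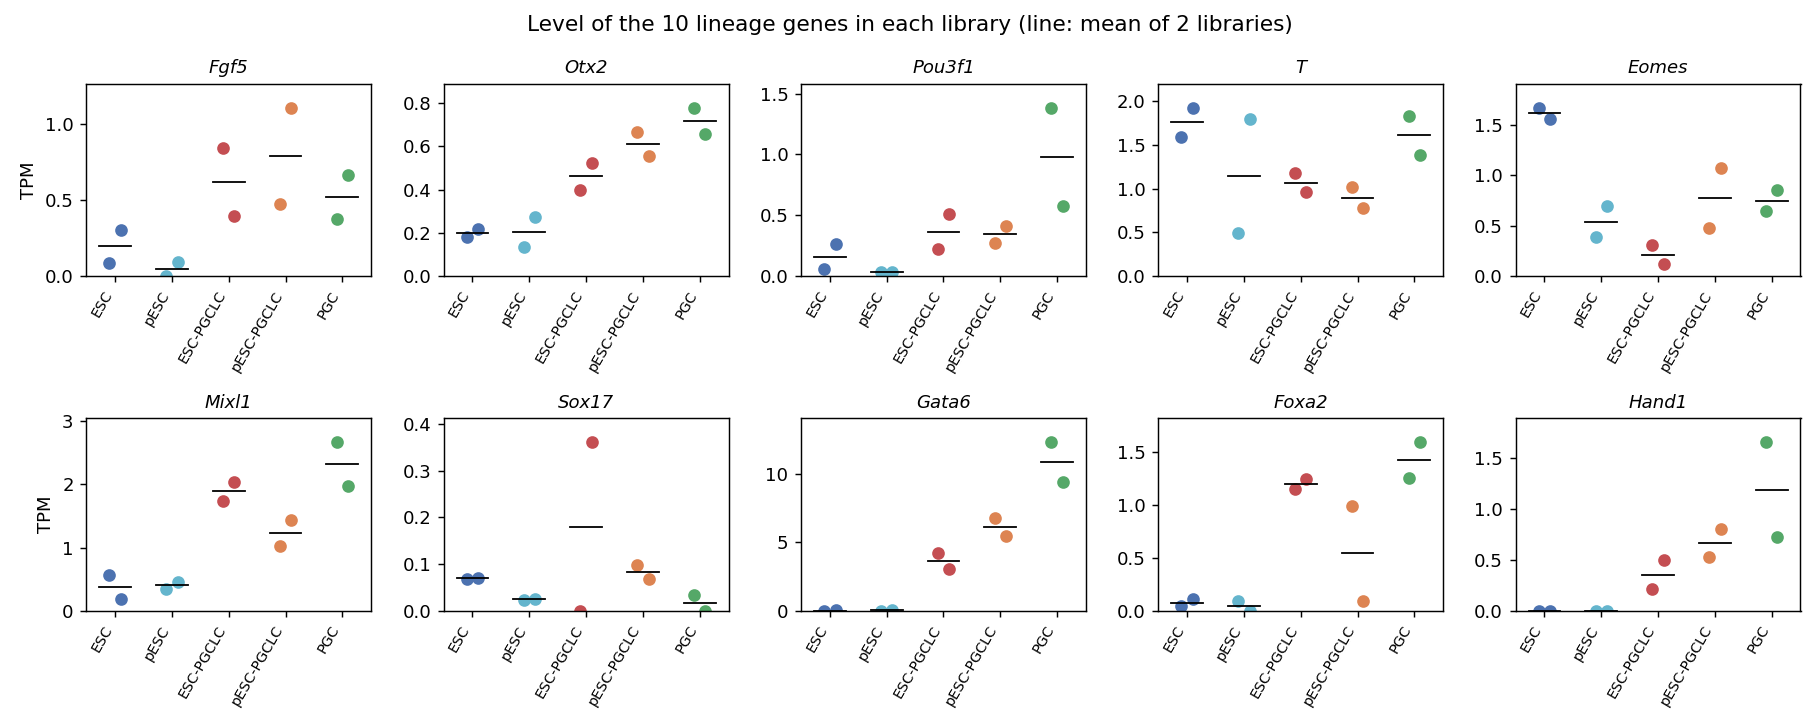
TPM of each of the 10 genes, 1 panel per gene with its own axis from 0. Points are libraries, grouped on the x axis, and lines are the means of 2 libraries. Gata6 climbs from at most 0.0722 TPM in stem cells to 9.36 and 12.3 TPM in PGCs, and Eomes is highest in ESCs.

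The epiblast genes came first, and positions of genes are those of GENCODE M21 on GRCm38. Fgf5, a growth factor that marks the primed epiblast, lies on chromosome 5 from 98254184 to 98277030. It was at 0.0868 and 0.303 TPM in ESCs, 0 and 0.0923 TPM in pESCs, 0.841 and 0.393 TPM in ESC-PGCLCs, 0.470 and 1.10 TPM in pESC-PGCLCs and 0.376 and 0.664 TPM in PGCs. The germ cell groups overlapped with each other and lay above both stem cell groups. From pESCs to pESC-PGCLCs the reads went from 2 to 36, a ratio of 17.5 (4.51 to 150.3). The log2 difference was 0.75 (standard error 0.219, adjusted p = 0.0242 from limma), under the 2-fold minimum on that scale, and it was 2.58 with a pseudocount of 0.1, where the gene was called. After the libraries were centred on their median it was 0.021, the lowest value under any alternative. From ESCs to ESC-PGCLCs the reads, 11 and 14, gave a ratio of 3.04 (1.28 to 7.41), with a log2 difference of 0.43 (adjusted p = 0.154 from limma).

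Otx2, a homeobox factor of the epiblast and forebrain that is known to hinder entry into the germline, lies on chromosome 14 from 48657677 to 48673819. Its values were 0.180 and 0.219 TPM in ESCs, 0.135 and 0.273 TPM in pESCs, 0.398 and 0.524 TPM in ESC-PGCLCs, 0.668 and 0.554 TPM in pESC-PGCLCs and 0.780 and 0.656 TPM in PGCs. It stayed under 1 TPM in every library, with 5 to 25 reads, and each germ cell library was above each stem cell library. The ratio of reads was 2.26 (1.09 to 4.64) in ESC-PGCLCs against ESCs and 2.99 (1.64 to 5.76) in pESC-PGCLCs against pESCs. The log2 differences were 0.28 (adjusted p = 0.0962 from limma) and 0.42 (adjusted p = 0.0238), both with a standard error of 0.123, neither of them 2-fold, and the second turned to -0.31 after median centring. Of its 100-base stretches, 1.56% are shared with other genes, among them the antisense gene Otx2os1, whose reads cannot be told apart without strand.

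Pou3f1, a POU factor of the epiblast and the later nervous system, lies on chromosome 4 from 124656807 to 124660655. It was at 0.0564 and 0.262 TPM in ESCs and at 0.0296 and 0.0300 TPM in pESCs, the latter from 1 read in each library. ESC-PGCLCs had 0.218 and 0.511 TPM, pESC-PGCLCs 0.275 and 0.414 TPM, and PGCs 1.38 and 0.575 TPM. PGCs lay above all other libraries, and ESC replicate 2 lay within the range of the PGCLCs. The log2 difference of ESC-PGCLCs from ESCs was 0.23 (standard error 0.209, adjusted p = 0.409 from limma), and 6.19% of the 100-base stretches of Pou3f1 also occur in Gm2164.

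The streak genes did not move together. T (Brachyury), the T-box factor that drives mesoderm formation and that BMP and Wnt signals switch on in the first steps of germline induction, lies on chromosome 17 from 8434423 to 8442496. It was found in every library, at 1.59 and 1.93 TPM in ESCs, 0.492 and 1.79 TPM in pESCs, 1.18 and 0.955 TPM in ESC-PGCLCs, 1.01 and 0.780 TPM in pESC-PGCLCs and 1.83 and 1.39 TPM in PGCs. The pESC replicates lay further apart than the means of any pair of groups, and their range held all germ cell libraries but PGC replicate 1. ESC-PGCLCs lay below ESCs, with a ratio of reads of 0.604 (0.360 to 0.974) and a log2 difference of -0.42 (standard error 0.288, adjusted p = 0.284 from limma). T was called in 0 of the 7 comparisons. Between pESCs and ESCs the log2 difference was -0.43 (adjusted p = 0.544), and 0.020 without pESC replicate 1.

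Eomes, the T-box factor that opens endoderm and mesoderm fates and is also a trophoblast gene, lies on chromosome 9 from 118478212 to 118486132. It showed the only called decrease among the 10 genes. Its level was 1.67 and 1.56 TPM in ESCs, from 64 and 77 reads, and 0.383 and 0.694 TPM in pESCs, from 14 and 25 reads. ESC-PGCLCs had 0.304 and 0.118 TPM from 6 and 2 reads, pESC-PGCLCs 0.480 and 1.07 TPM from 17 and 42 reads, and PGCs 0.641 and 0.853 TPM from 17 and 32 reads. Both ESC libraries were above all other libraries, and both ESC-PGCLC libraries were below all others. ESC-PGCLCs held 0.211 ± 0.131 TPM and ESCs 1.62 ± 0.0799 TPM (SD, n = 2). The ratio of reads was 0.136 (0.0574 to 0.275) and the log2 difference -1.11 (standard error 0.204, adjusted p = 0.00261 from limma).

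Mixl1, a homeobox gene of the primitive streak that acts in endoderm and mesoderm formation, lies on chromosome 1 from 180693043 to 180697034. It was at 0.568 and 0.183 TPM in ESCs, 0.347 and 0.453 TPM in pESCs, 1.74 and 2.03 TPM in ESC-PGCLCs, 1.02 and 1.44 TPM in pESC-PGCLCs and 2.67 and 1.98 TPM in PGCs. All germ cell libraries were above 1 TPM and all stem cell libraries below 0.6 TPM. From ESCs (0.376 ± 0.272 TPM) to ESC-PGCLCs (1.89 ± 0.208 TPM; SD, n = 2) the ratio of reads was 5.34 (2.94 to 10.1). Mixl1 was called there, with a log2 difference of 1.08 (standard error 0.207, limma adjusted p = 0.00326), and without ESC replicate 2 the difference was 0.88 (adjusted p = 0.0297), under the 2-fold minimum. From pESCs to pESC-PGCLCs the ratio was 3.10 (1.74 to 5.83) and the log2 difference 0.67 (standard error 0.207, adjusted p = 0.0312), and median centring turned it to -0.064.

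The endoderm genes ranged from near absence to the highest level among the 10. Sox17, an HMG-box factor of definitive and primitive endoderm, lies on chromosome 1 from 4490931 to 4497354. It was at 0.0682 and 0.0705 TPM in ESCs, 0.0238 and 0.0242 TPM in pESCs, 0 and 0.360 TPM in ESC-PGCLCs, 0.0984 and 0.0668 TPM in pESC-PGCLCs and 0.0329 and 0 TPM in PGCs. These values came from 0 to 7 reads per library, with more than 3 reads in ESC replicate 2, ESC-PGCLC replicate 2 and pESC-PGCLC replicate 1. In the other 7 libraries 3 reads were worth 0.0668 to 0.132 TPM, and differences below that size were not detectable at this depth. Sox17 reached 0.1 TPM in 1 library and so did not enter the fit, and 13.3% of its 100-base stretches are shared with Gm37587.

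Gata6, a zinc-finger factor of primitive endoderm, heart and gonadal somatic cells, lies on chromosome 18 from 11052064 to 11085635, and it changed most. Its values were 0 and 0.0263 TPM in ESCs and 0 and 0.0722 TPM in pESCs, from at most 4 reads. ESC-PGCLCs had 4.21 and 3.08 TPM from 130 and 82 reads, pESC-PGCLCs 6.73 and 5.46 TPM from 373 and 334 reads, and PGCs 12.3 and 9.36 TPM from 509 and 550 reads. The groups were thus ordered from the stem cells to ESC-PGCLCs, pESC-PGCLCs and PGCs, with no overlap in TPM between the 3 germ cell groups. The median TPM of the 9024 genes at 1 TPM or more everywhere rose in the same order of germ cell groups. It was 11.5 and 12.1 TPM, 15.7 and 16.15 TPM, and 18.9 and 17.9 TPM. After each library was scaled to a common median, Gata6 differed by 0.25 (log2) between the PGCLC groups and by 0.53 between PGCs and pESC-PGCLCs. The ratio of reads was 253 (69.3 to 2106) for ESC-PGCLCs against ESCs and 172 (66.9 to 633) for pESC-PGCLCs against pESCs. By limma the log2 differences were 2.19 (adjusted p = 8.55e-05) and 2.77 (adjusted p = 4.16e-05), each with a standard error of 0.208. Both were called under all the alternatives, including each left-out library.

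Foxa2, a forkhead factor of definitive endoderm, node and floor plate, lies on chromosome 2 from 148042877 to 148046969. It was at 0.0458 and 0.106 TPM in ESCs and 0.0960 and 0 TPM in pESCs, from 0 to 3 reads. ESC-PGCLCs had 1.15 and 1.24 TPM, pESC-PGCLCs 0.991 and 0.0897 TPM, and PGCs 1.26 and 1.59 TPM. The pESC-PGCLC replicates, with 20 and 2 reads, differed more than any other pair for this gene, and replicate 2 was among the stem cells. The ratio of reads in ESC-PGCLCs against ESCs was 14.9 (5.16 to 59.1), and the log2 difference was 1.03 (standard error 0.256, adjusted p = 0.0116 from limma). That call was lost without ESC replicate 1 (log2 difference 0.99, adjusted p = 0.0708), without ESC replicate 2 (1.07, adjusted p = 0.0537) and without ESC-PGCLC replicate 2 (1.00, adjusted p = 0.0547).

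Hand1, a basic helix-loop-helix factor of extraembryonic mesoderm, trophoblast giant cells and heart, lies on chromosome 11 from 57828705 to 57832818. It had 0 reads in the 4 stem cell libraries, which allows up to 0.126 to 0.173 TPM in each. ESC-PGCLCs had 0.211 and 0.492 TPM from 2 and 4 reads, pESC-PGCLCs 0.529 and 0.798 TPM from 9 and 15 reads, and PGCs 1.65 and 0.721 TPM from 21 and 13 reads. Set against 3 reads in each pESC library, pESC-PGCLCs were at least 3.86-fold higher. On the log2 scale the difference was 0.73 (standard error 0.209, adjusted p = 0.0226 from limma), under 2-fold, and -0.00062 after median centring, which also shifts values of 0. In ESC-PGCLCs against ESCs it was 0.43 (adjusted p = 0.138), and Hand1 was called there with a pseudocount of 0.1 and by voom on the recovered reads.

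In ESC-PGCLCs against ESCs, 4 of the 9 tested genes were called. Gata6, Mixl1 and Foxa2 were higher, where 15.3% of all tested genes were called higher, and Eomes was lower, where 14.5% were. The median log2 difference of the 9 genes was 0.43, and that of all genes was 0.049. In pESC-PGCLCs against pESCs 1 of 9 was called, Gata6, which was higher. Here 20.8% of all tested genes were called higher and 6.8% lower, and the median was 0.49 for the 9 genes and 0.22 for all genes. Fgf5, Otx2, Mixl1 and Hand1 passed the adjusted p in this comparison and fell short of 2-fold on the log2(TPM + 1) scale. With quantile normalization the limma adjusted p was 0.068 for Fgf5, 0.231 for Otx2 and 0.234 for Mixl1, and with scaling by library it was 0.0532, 0.144 and 0.176. For Hand1 it was 0.0188 and 0.0257. Mixl1 missed the threshold without any 1 of the 4 libraries (adjusted p 0.0513 to 0.155). Fgf5 (0.0669 to 0.141) and Hand1 (0.084 to 0.120) missed it without pESC replicate 1, pESC replicate 2 or pESC-PGCLC replicate 2, and Otx2 missed it without pESC replicate 1 (0.114) or pESC-PGCLC replicate 1 (0.0947). With a pseudocount of 0.1, which compresses low levels less, 6 of the 9 were called higher (these 4 with Gata6 and Pou3f1), where 31.8% of all tested genes were, and voom called 4 higher, where 28.7% of all genes were.

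**Figure D3:**
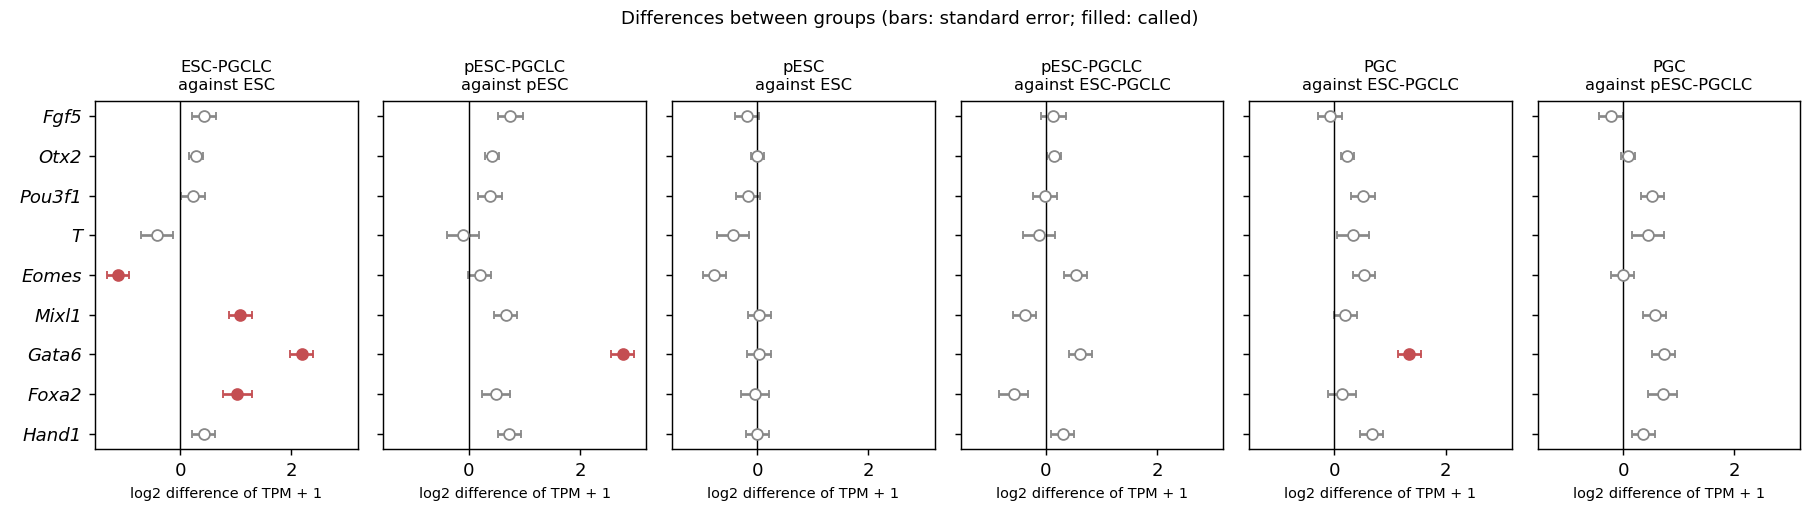
log2 differences of TPM + 1 between groups for the 9 tested genes, 1 panel per comparison, with the standard error as bars. Filled red points are called and open points are not. Gata6 stands at 2.19 and 2.77 in the comparisons of PGCLCs with their stem cells, and Eomes at -1.11 in the first panel.

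Both changes were then compared between the lines by the interaction of origin and differentiation, the change from pESCs to pESC-PGCLCs less the change from ESCs to ESC-PGCLCs. Of the 9 genes 1 was called higher, Eomes, and 0 lower. Of all tested genes 15.5% were called higher in this comparison and 3.53% lower. The median was 0.30 for the 9 genes and 0.21 for all genes. The level of Eomes fell in the cells from ESCs, while in the cells from pESCs it was 0.539 ± 0.220 TPM before and 0.777 ± 0.420 TPM after (SD, n = 2), a log2 difference of 0.19 (adjusted p = 0.485 from limma) that turned negative under quantile normalization (-0.14), scaling by library (-0.11), median centring (-0.54) and without pESC-PGCLC replicate 2 (-0.048). The interaction was 1.31 (standard error 0.289, adjusted p = 0.0148). It had the same sign under all alternatives and was not called without ESC replicate 1 (adjusted p = 0.0605), pESC replicate 1 (adjusted p = 0.0525) or ESC-PGCLC replicate 2 (adjusted p = 0.0527), nor after median centring (0.57, adjusted p = 0.134). For Gata6 the interaction was 0.58 (standard error 0.294, adjusted p = 0.207), so the difference between its 2 rises did not pass the test, and median centring and voom turned it to -0.16 and -0.18.

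**Figure D4:**
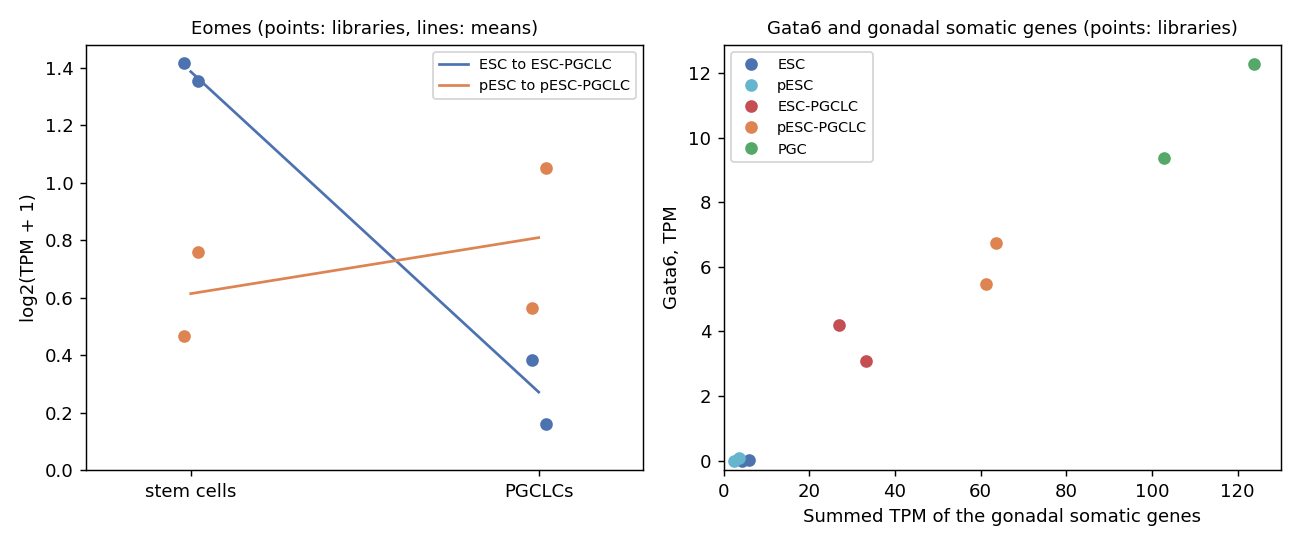
Left, log2(TPM + 1) of Eomes in stem cells and PGCLCs, with points for libraries and lines through the means of 2, for cells from ESCs (blue) and from pESCs (orange). Right, TPM of Gata6 against the summed TPM of the 11 gonadal somatic genes, 1 point per library. Eomes falls in the cells from ESCs, where it was called, and its libraries overlap in those from pESCs, while Gata6 and the sum are lowest in stem cells and highest in PGCs.

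Between the lines, limma called 0 of the 9 genes in pESCs against ESCs, with 1 at an unadjusted p under 0.05 and 0 by voom. Of all 27259 tested genes limma called 0.165% higher and 0.616% lower, and 4838 were at an unadjusted p under 0.05. The 1 gene of the 9 at that p was Eomes. Its pESC mean was 0.539 ± 0.220 TPM and its ESC mean 1.62 ± 0.0799 TPM (SD, n = 2). Its ratio of reads was 0.334 (0.228 to 0.480), and its libraries did not overlap. The log2 difference was -0.77 (standard error 0.204, adjusted p = 0.0952 from limma). In pESC-PGCLCs against ESC-PGCLCs 0 of 9 were called as well, with 2 at an unadjusted p under 0.05 and 0 by voom. Of all 27259 tested genes limma called 10.3% higher and 3.08% lower, and 9634 were at an unadjusted p under 0.05. Gata6 was at 6.09 ± 0.899 and 3.64 ± 0.803 TPM, with a log2 difference of 0.62 (adjusted p = 0.0693 from limma). This fell to 0.28 with quantile normalization, 0.25 with scaling by library and 0.21 with median centring. Eomes differed by 0.54 (adjusted p = 0.0993), and by 0.13 after median centring, and Foxa2 by -0.58 (adjusted p = 0.152). Without pESC-PGCLC replicate 1 the difference of Foxa2 was -1.01 (adjusted p = 0.0119) and was called, a fit in which the pESC-PGCLC library with 2 reads is the single library of its group and is assumed to vary like the others.

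PGCs were compared with each kind of PGCLC, and these comparisons share the PGC libraries. Against ESC-PGCLCs 1 of 9 genes was called, Gata6, which was higher in PGCs, where 12.0% of all tested genes were called higher and 1.88% lower. The ratio of reads was 2.86 (2.47 to 3.33) and the log2 difference 1.35 (standard error 0.208, adjusted p = 0.00368 from limma). The median of all genes was 0.27 in this comparison. After each library was scaled or centred to a common median the difference of Gata6 was 0.78 or 0.74, with an adjusted p of 0.0383 or 0.0249 and under 2-fold, and in a fit of these 2 groups alone the adjusted p was 0.0713. Hand1 differed by 0.67 (adjusted p = 0.0444), under 2-fold. Its adjusted p missed the threshold without PGC replicate 1 (log2 difference 0.36, adjusted p = 0.172), ESC-PGCLC replicate 1 (0.52, adjusted p = 0.195) or ESC-PGCLC replicate 2 (0.82, adjusted p = 0.0671), after median centring (0.062, adjusted p = 0.828) and by voom (adjusted p = 0.170). Against pESC-PGCLCs limma called 0 of 9, with 4 at an unadjusted p under 0.05 and 0 by voom. Of all 27259 tested genes limma called 2.07% higher and 1.6% lower, and 7955 were at an unadjusted p under 0.05. On the log2(TPM + 1) scale Gata6 differed by 0.73 (adjusted p = 0.0651), Foxa2 by 0.71 (adjusted p = 0.113) and Mixl1 by 0.57 (adjusted p = 0.115). By ratio of reads Foxa2 stood at 2.80 (1.68 to 4.84), Pou3f1 at 2.62 (1.59 to 4.43), Mixl1 at 1.82 (1.27 to 2.65) and Gata6 at 1.74 (1.58 to 1.92). T was at 1.76, Hand1 at 1.65, Otx2 at 1.16, Eomes at 0.966 and Fgf5 at 0.678. These intervals cover counting error only, and the pESC-PGCLC replicates of Foxa2 had 20 and 2 reads.

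Other genes of the same lineages were taken from lists chosen by role. Their counts stand beside the shares of all tested genes given above, 15.3% higher and 14.5% lower in ESC-PGCLCs and 20.8% higher and 6.8% lower in pESC-PGCLCs. Epiblast genes went both ways. Of 20 tested, 5 were called higher and 6 lower in ESC-PGCLCs, with a median of 0.10, and 5 higher and 5 lower in pESC-PGCLCs, with a median of 0.28, and the count of higher genes in pESC-PGCLCs is near the share of all genes. Tdgf1, the Nodal co-receptor, fell from 586 to 1.01 TPM in the cells from ESCs and from 513 to 4.96 TPM in those from pESCs. Nodal itself fell from 8.68 to 0.385 TPM and from 6.75 to 0.737 TPM. Dnmt3b, a de novo DNA methyltransferase, fell from 7.36 to 0.769 TPM and from 4.40 to 1.28 TPM. Sox4, an HMG-box factor, rose from 1.04 to 17.3 TPM and from 1.22 to 12.1 TPM. Dusp6, a phosphatase that damps ERK signaling, rose from 2.69 to 12.9 TPM and from 0.422 to 9.08 TPM.

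Among 26 tested genes of the primitive streak and mesoderm, 5 were called higher and 3 lower in ESC-PGCLCs and 9 higher and 3 lower in pESC-PGCLCs, with medians of 0.23 and 0.42. In ESC-PGCLCs these counts are near the shares of all genes. The homeobox genes Msx1 and Msx2, known targets of BMP signals, had the largest log2(TPM + 1) differences among the called genes of the list in both. Msx1 went from 0.0797 to 24.4 TPM in the cells from ESCs (log2 difference 4.56, standard error 0.160, limma adjusted p = 1.75e-06) and from 0.0556 to 11.4 TPM in those from pESCs (3.55, adjusted p = 5.7e-06). Msx2 went from 0.184 to 17.1 TPM and from 0.0352 to 12.8 TPM. Lhx1, a LIM homeobox gene, went from 0.0103 TPM (1 read) to 7.92 TPM (285 reads) and from 0 to 4.65 TPM. Nkx1-2 fell from 3.31 to 0 TPM in the cells from ESCs and from 1.65 to 0.207 TPM in those from pESCs. Mesp1, a factor of the earliest heart-forming mesoderm, was at most 0.0851 TPM in the stem cells and rose to 1.57 and 2.17 TPM in pESC-PGCLCs. ESC-PGCLCs had 0.495 and 0.385 TPM of it. Msx1 was also lower in pESC-PGCLCs than in ESC-PGCLCs (-1.04, adjusted p = 0.00292).

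**Figure D5:**
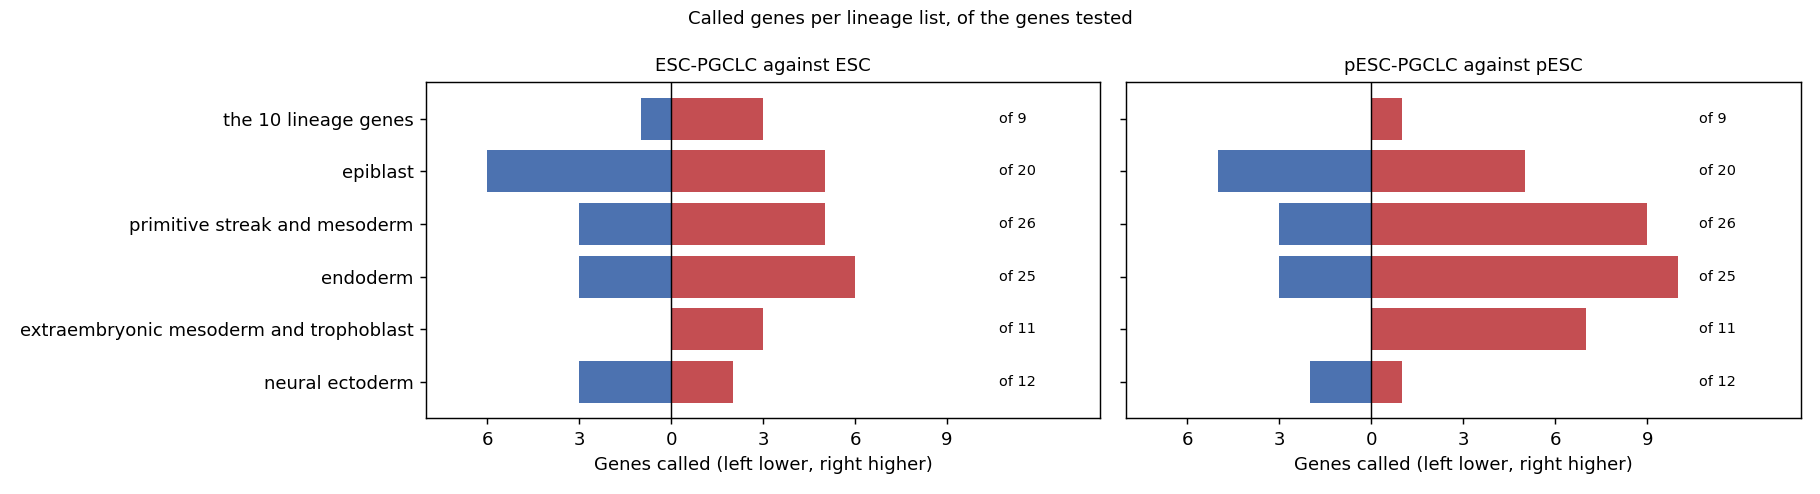
Number of genes called in each lineage list when PGCLCs were compared with their own stem cells, to the left of 0 for lower and to the right for higher, with the number tested beside each row. The epiblast list has 6 lower and 5 higher genes in ESC-PGCLCs, and the extraembryonic list has 7 higher and 0 lower genes in pESC-PGCLCs.

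Of 25 tested endoderm genes, 6 were called higher and 3 lower in ESC-PGCLCs and 10 higher and 3 lower in pESC-PGCLCs, with medians of 0.39 and 0.78. The count of lower genes in ESC-PGCLCs is near the share of all genes. Cxcr4, a chemokine receptor of endoderm that migrating PGCs also use, went from 0 TPM in all 4 stem cell libraries to 5.23 and 5.57 TPM in ESC-PGCLCs and 6.17 and 7.94 TPM in pESC-PGCLCs. Epcam, an adhesion molecule of epithelia and germ cells, rose from 22.6 to 144 TPM in the cells from pESCs. Apoe, a lipoprotein of yolk sac and many other cells, fell from 618 to 4.61 TPM in the cells from ESCs, and from 328 to 39.7 TPM in those from pESCs. Sparc, a matrix protein, fell from 168 to 17.2 TPM in the cells from ESCs and from 109.5 to 25.1 TPM in those from pESCs. Lefty1, a Nodal antagonist, fell from 15.9 to 0.708 TPM and from 14.4 to 1.94 TPM. Gata4, the relative of Gata6, was at 0.651 TPM in ESC-PGCLCs, 3.67 TPM in pESC-PGCLCs (1.50 on the log2 scale above ESC-PGCLCs, adjusted p = 0.00244 from limma) and 4.85 TPM in PGCs (1.81, adjusted p = 0.00191).

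In the list of extraembryonic mesoderm and trophoblast, beside Hand1, 3 of 11 tested genes were called higher in ESC-PGCLCs and 7 of 11 in pESC-PGCLCs, with 0 lower in either and medians of 0.39 and 1.32. Gata2 rose from 0.0870 to 13.0 TPM in the cells from ESCs and from 0.107 to 9.84 TPM in those from pESCs. Gata3 rose from 0.0969 to 2.48 TPM in the cells from ESCs and from 0.129 to 1.61 TPM in those from pESCs. Tbx4 went from 0 to 2.39 TPM and from 0.0335 to 0.414 TPM. Krt18, a keratin, rose from 2.08 to 4.95 TPM in the cells from ESCs and from 1.20 to 23.6 TPM in those from pESCs. Bmp4 went from 1.77 to 3.74 TPM and from 0.384 to 7.33 TPM. Plac1 went from 0.0691 to 0.163 TPM (2 reads in each group) and from 0.164 to 3.05 TPM. Neural genes were called in both directions, with 2 higher and 3 lower of 12 tested in ESC-PGCLCs and 1 higher and 2 lower in pESC-PGCLCs. Olig2 fell from 8.01 to 0.0431 TPM and from 4.51 to 0.131 TPM, and Pax6 rose from 0.103 to 6.02 TPM and from 0.118 to 2.55 TPM.

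Summed levels of gonadal somatic and of blood genes were higher in every germ cell group than in the stem cells, and those of fibroblast genes were not. All 11 tested gonadal somatic genes were higher in all 6 germ cell libraries than in all 4 stem cell libraries, as were 27.3% of all tested genes. Their summed level was 4.22 to 5.96 TPM in ESCs, 2.41 to 3.51 TPM in pESCs, 27.0 to 33.2 TPM in ESC-PGCLCs, 61.2 to 63.6 TPM in pESC-PGCLCs and 102.8 to 123.9 TPM in PGCs. The order from stem cells to ESC-PGCLCs, pESC-PGCLCs and PGCs was that of Gata6, while between the stem cell groups the sum was higher in ESCs and the mean of Gata6 was higher in pESCs. In the germ cell groups the library medians given with Gata6 rose in the same order. Of these 11 genes 5, 9 and 9 were called higher in ESC-PGCLCs against ESCs, in pESC-PGCLCs against pESCs and in PGCs against ESC-PGCLCs, and 0 were lower. The shares of all tested genes were 15.3%, 20.8% and 12.0% higher and 14.5%, 6.8% and 1.88% lower. Wt1 was at 7.16 and 8.05 TPM in ESC-PGCLCs, 13.0 and 11.0 TPM in pESC-PGCLCs and 26.2 and 22.4 TPM in PGCs, while Nr5a1, the steroidogenic factor, was at 0.0991 and 0.348 TPM, 1.55 and 1.83 TPM, and 4.18 and 1.96 TPM. The 12 blood genes summed to at most 4.64 TPM in the stem cells, 493 to 562 TPM in ESC-PGCLCs, 2903 to 3439 TPM in pESC-PGCLCs and 1990 to 2201 TPM in PGCs. Haemoglobins made up nearly all of this, since Ptprc, the pan-leukocyte marker, was at most 0.103 TPM in any library and at 0 in both ESC-PGCLC libraries, as was Tal1, the blood progenitor factor. The part of gonadal somatic or blood RNA in the levels of Gata6, Hand1 and the other genes was not tested. The 12 fibroblast genes summed to 38.9 to 40.1 TPM in ESCs and 23.9 to 25.6 TPM in ESC-PGCLCs. Their sum was 29.7 to 41.1 TPM in pESCs, 32.6 to 33.0 TPM in pESC-PGCLCs and 44.3 to 45.9 TPM in PGCs.

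Over the 10 libraries the 10 genes fell into those that varied with Gata6 and those that did not. As a description over points that share groups and depth, Pearson's r of log2(TPM + 1) with Gata6 was 0.96 for Otx2, 0.91 for Hand1, 0.90 for Mixl1, 0.81 for Foxa2, 0.79 for Pou3f1 and 0.73 for Fgf5. It was -0.065 for T, -0.34 for Eomes and 0.020 for Sox17. T and Eomes had an r of 0.51 with each other. Among the 18232 genes searched, Gata6 was most like Tcp11l2, Homez and Igfbpl1 (r of 1.00 after rounding, n = 10), and Mixl1 most like A230087F16Rik, Taf4 and Fzd7 (0.99). Hand1 was most like Mtmr10, Crispld2 and Hsd11b2 (0.99), Pou3f1 most like Mllt1, Lmtk2 and Map3k10 (0.97), and Foxa2 most like Tpt1-ps6, Gm44041 and Slc6a20a (0.97). Eomes was most like 8030462N17Rik, Mthfsd and Mccc1 (0.96 to 0.97), Fgf5 most like 1700054O05Rik, Gm4815 and 9430083B18Rik (0.92 to 0.95), and T most like Gm15471, Frmd4a and Ccnt2 (0.93 to 0.94).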

How the data were processed

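RNA-seq libraries of the 5 groups named above, 2 replicates each, were grouped by their sample titles. Hisat2 (mm10) and Feature-counts were the aligner and counter of the authors, who deposited TPM values, which sum to 1000000 per library. The submitters' processing notes also list Bowtie2, RSEM, DESeq2 and R 3.4.2 without a role, and the gene annotation is not given in the sources used here. The methods describe Smart-seq2 libraries and the labels NEBNext libraries, so strand was taken as unknown. All columns of values were used.

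Symbols were matched to GENCODE M21 (GRCm38), 35861 of 36066 to 1 gene. TPM multiplied by exon length gave whole reads, within 0.05, for 95.5% to 95.9% of values under 1000 reads, after a factor per library. The fit took the 27259 genes that reached 0.1 TPM in 2 or more libraries. On log2(TPM + 1), limma 3.58.1 in R 4.3.3 fitted 5 group means, with variances moderated along a trend on the mean and Benjamini-Hochberg adjustment, two-sided. The 7 comparisons, the call rule and the floor of 3 reads are given with the results. Python 3.11.15, pandas 2.3.3, scipy 1.17.1 and matplotlib 3.10.9 were used for the rest. The fit was also run on simulated data, in which only genes with higher mean levels than these lineage genes were changed. That run therefore does not bear on genes at such low levels.

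The genes and gene lists were chosen with earlier results of these data known. From each lineage list up to 4 called genes per comparison were eligible to be named, by the size of the log2 difference, with at least 1 TPM in the higher group and no overlap, and marker genes as a check of the labels. Genes most like each lineage gene are the 3 with the highest Pearson r. As alternatives, the pseudocount was set to 0.1, the filter raised to 1 TPM or dropped, and the fit repeated with quantile normalization, median centring over 9024 genes with at least 1 TPM everywhere, the compared groups alone, a replicate block, voom, no fold change minimum and each replicate left out. Scaling TPM by library before the log was added after seeing the data.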

Additional observations from a re-analysis of the deposited data

Results flagged for a closer look

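The change of Eomes on differentiation differed between the 2 origins by the test of the difference itself. Its interaction of origin and differentiation was 1.31 on the log2(TPM + 1) scale (standard error 0.289, adjusted p = 0.0148 from limma). By the same test 15.5% of all tested genes were called higher and 3.53% lower. The value for Eomes was of low depth. It rests on 141 reads in ESCs, 39 in pESCs, 8 in ESC-PGCLCs and 59 in pESC-PGCLCs, and its dependence on single libraries and on the scaling stands with the results above. The cause was not tested.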

How the results depend on the processing

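The comparison of ESC-PGCLCs with ESCs gave 4 called genes of the 9, and 2 to 4 when a library was left out. In pESC-PGCLCs against pESCs the count was 1, and 6 with a pseudocount of 0.1, 4 by voom and 5 without a fold change minimum, all higher, where 31.8%, 28.7% and 33.7% of all tested genes were called higher, and 1 to 2 when a library was left out. In pESC-PGCLCs against ESC-PGCLCs it was 0, and 0 to 1 when a library was left out. In PGCs against ESC-PGCLCs it was 1, and 0 with quantile normalization, median centring, scaling by library (chosen after seeing the data) or the compared groups alone. Without a fold change minimum it was 2, both higher, where 27.2% of all tested genes were called higher. The interaction gave 1, Eomes, a call that was not kept in every fit with a library left out. After median centring the count was 2, Mixl1 and Foxa2, both lower. In that setting 14.9% of all tested genes were called lower and 6.34% higher. In pESCs against ESCs and in PGCs against pESC-PGCLCs it was 0 under each alternative. Of 27 log2 differences followed, 10 values of 378 turned sign. Over all 63 differences of the 9 genes, median centring turned 25, quantile normalization and scaling by library 9 each, and a pseudocount of 0.1 and voom 2 each. Median centring turned Hand1 (-0.00062), Mixl1 (-0.064) and Otx2 (-0.31) in pESC-PGCLCs against pESCs. Eomes in that comparison was -0.14 with quantile normalization, -0.54 after median centring and -0.11 with scaling by library, and ranged from -0.048 to 0.44 without a library. The interaction of Gata6 was -0.16 after median centring and -0.18 by voom, and without a library T ranged from -0.89 to 0.020 in pESCs against ESCs. Because centring on the log scale shifts values of 0 as well, genes at 0 move by the alternative's own construction.

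Counts over all genes depended on the settings as follows. In pESCs against ESCs 213 genes were called, and 402 with a filter of 1 TPM, 134 without a filter, 122 with quantile normalization, 78 with the replicate block, 459 by voom and 0 with the compared groups alone. Without ESC replicate 1 the count was 30, without ESC replicate 2 it was 63, without pESC replicate 1 it was 51 and without pESC replicate 2 it was 953. In PGCs against ESC-PGCLCs 3772 were called, and 6140 with a pseudocount of 0.1, 1906 with quantile normalization, 1952 with scaling by library and 0 with the compared groups alone. In PGCs against pESC-PGCLCs 1000 were called, and 631 without a filter, 1956 by voom and 0 with the compared groups alone. It was 65 without pESC-PGCLC replicate 1, 34 without replicate 2, 142 without PGC replicate 1 and 1966 without PGC replicate 2. Without a fold change minimum 12637 (main 8122), 12160 (main 7535), 6496 (main 3651), 8471 and 2438 were called in the comparisons from ESC-PGCLCs against ESCs to PGCs against pESC-PGCLCs, and voom called 12295 and 11317 in the first 2. The share of called genes that were higher was 75.4% in pESC-PGCLCs against pESCs and 31.3% after median centring, 77.0% and 43.6% in pESC-PGCLCs against ESC-PGCLCs, 86.4% and 26.2% in PGCs against ESC-PGCLCs, 56.4% and 26.3% in PGCs against pESC-PGCLCs, 21.1% and 84.3% in pESCs against ESCs, and 81.5% and 29.8% in the interaction.

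Replicate numbers recur across groups, but the deviations of same-numbered libraries had correlations from -0.051 to 0.24 (median 0.030), so the numbers were not taken to pair the samples. With the replicate block 4 genes of the 9 were called in ESC-PGCLCs against ESCs, 1 in pESC-PGCLCs against pESCs and 1 in the interaction, the same counts as without it.

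Depth limits these genes, since most rest on fewer than 50 reads per library and the stem cell levels of Gata6, Foxa2, Hand1 and Sox17 on 0 to 4. The ESC-PGCLC libraries were shallowest, so low levels were least well measured there.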
